A study of Mus musculus with 12 samples.

Results

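The binding of MED24, a subunit of the Mediator complex, was compared between mouse embryonic stem cells after 2 h of 4-hydroxytamoxifen (4OHT) and untreated cells (0 h). The comparison rests on 4 of the 12 samples of the series, the MED24 libraries of clones a and b at each time, chosen by their titles. Another 4 samples are MED1 libraries of the same design, and the remaining 4 are inputs, which were not analysed here. All cells were of the E14tg2a line (129SV background) and stably carried a cRAF-ErT2 cassette, a RAF kinase that 4OHT activates. Both groups had first been kept with serum, LIF and 2 µM Chir99021, an inhibitor of GSK3. For the last 24 h before treatment Chir99021 was replaced by 250 nM PD173074, an inhibitor of FGF receptors, with serum and LIF kept. The 2 h group then received 250 nM 4OHT and the 0 h group was left untreated. Crosslinking used formaldehyde and then disuccinimidyl glutarate, and MED24 was precipitated with anti-FLAG. Each group holds 1 library from each of 2 clones of 1 line. No vehicle-treated library and no library from cells without the cassette was analysed, so 4OHT, time and ERK activity cannot be told apart. Whether the clones came from separate cultures at each time is not stated, and p-values measure only the spread between these libraries. Merging the peaks of the 4 lists wherever they overlapped by at least 1 bp gave 66123 MED24 regions.

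Mediator is a large complex that carries signals from DNA-bound transcription factors to RNA polymerase II, and it is found at enhancers and promoters. MED24 belongs to the tail module, the side of the complex that many activators contact, and MED1 is another subunit of Mediator. RAF activates the kinase MEK, and MEK activates ERK, which phosphorylates transcription factors such as ETS proteins and induces immediate early genes and its own feedback inhibitors. In mouse embryonic stem cells, ERK signalling downstream of FGF4 favours exit from naive pluripotency and the primitive endoderm fate.

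A region is called gained where both 2 h libraries and neither 0 h library held a peak, lost in the reverse case, and constant where all 4 libraries held one. Gene starts were taken as windows of 250 bases before to 50 bases after a RefSeq start (GRCm38.p6, which mm10 stands for), and the same 3 words are used for them. The windows below are those of the best-ranked gained and lost starts, 2 genes of the ERK feedback list, and Plaur. Plaur was picked after its values were seen, because the bases covered in its region rose most among constant regions. The windows run 5′ to 3′ on the gene's own strand, with the bases of any motif match in capitals. Dnah1 (an axonemal dynein heavy chain; chr14:31323847-31324146, minus strand) and Gsn (gelsolin, which severs actin filaments; chr2:35266494-35266793, plus strand) gained a peak. So did the windows of Plaur (the urokinase receptor; chr7:24462233-24462532, plus strand) and Spred3 (a Sprouty-related inhibitor of RAF activation; chr7:29168598-29168897, minus strand). Klk1 (a kallikrein protease; chr7:44225110-44225409, plus strand) and an upstream start of Gpx4 (a peroxidase for lipid hydroperoxides; chr10:80046916-80047215, plus strand) lost theirs. Dusp1 (a phosphatase of ERK and related kinases; chr17:26508423-26508722, minus strand) was called in all 4 libraries.
Dnah1: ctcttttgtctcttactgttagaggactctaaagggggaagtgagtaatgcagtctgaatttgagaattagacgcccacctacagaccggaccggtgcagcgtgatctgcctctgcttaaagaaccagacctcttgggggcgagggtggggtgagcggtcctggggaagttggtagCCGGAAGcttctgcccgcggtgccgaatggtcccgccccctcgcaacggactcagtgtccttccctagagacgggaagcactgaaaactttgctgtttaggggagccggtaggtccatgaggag
Gsn: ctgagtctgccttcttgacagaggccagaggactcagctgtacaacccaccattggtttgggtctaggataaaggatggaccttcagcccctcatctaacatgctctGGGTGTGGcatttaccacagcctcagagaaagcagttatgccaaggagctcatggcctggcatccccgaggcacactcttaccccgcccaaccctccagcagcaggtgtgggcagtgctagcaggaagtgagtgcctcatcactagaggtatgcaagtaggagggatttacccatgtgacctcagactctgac
Plaur: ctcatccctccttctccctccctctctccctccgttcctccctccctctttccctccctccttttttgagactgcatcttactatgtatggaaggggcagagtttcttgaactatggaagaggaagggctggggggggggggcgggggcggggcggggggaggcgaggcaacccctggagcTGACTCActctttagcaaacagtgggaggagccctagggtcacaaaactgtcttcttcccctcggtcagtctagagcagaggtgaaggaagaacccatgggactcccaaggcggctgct
Spred3: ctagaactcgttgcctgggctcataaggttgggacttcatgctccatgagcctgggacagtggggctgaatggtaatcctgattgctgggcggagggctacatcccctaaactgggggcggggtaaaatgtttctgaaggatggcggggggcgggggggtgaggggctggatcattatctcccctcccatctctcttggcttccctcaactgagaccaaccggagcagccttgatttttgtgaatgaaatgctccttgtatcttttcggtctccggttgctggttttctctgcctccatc
Klk1: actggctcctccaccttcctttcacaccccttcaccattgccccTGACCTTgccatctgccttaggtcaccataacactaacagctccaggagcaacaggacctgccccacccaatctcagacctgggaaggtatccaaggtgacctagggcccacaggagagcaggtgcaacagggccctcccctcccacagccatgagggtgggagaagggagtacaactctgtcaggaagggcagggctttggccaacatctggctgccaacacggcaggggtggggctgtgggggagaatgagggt
Gpx4: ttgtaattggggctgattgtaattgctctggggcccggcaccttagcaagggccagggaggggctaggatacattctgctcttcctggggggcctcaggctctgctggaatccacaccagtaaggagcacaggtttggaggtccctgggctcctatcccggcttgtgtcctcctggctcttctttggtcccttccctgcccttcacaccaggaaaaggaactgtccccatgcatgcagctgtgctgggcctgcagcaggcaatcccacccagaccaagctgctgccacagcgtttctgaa
Dusp1: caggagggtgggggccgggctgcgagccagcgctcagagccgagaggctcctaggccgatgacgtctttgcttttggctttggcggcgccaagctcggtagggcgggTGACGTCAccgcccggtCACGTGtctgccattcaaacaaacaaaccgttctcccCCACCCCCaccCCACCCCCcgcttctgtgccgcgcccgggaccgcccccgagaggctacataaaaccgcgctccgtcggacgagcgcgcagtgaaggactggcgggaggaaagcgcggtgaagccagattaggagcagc

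Motifs were searched on both strands by their letters alone. The Dnah1 window holds an ETS core (CCGGAAG), the Gsn window a KLF-type GGGNGTGG, the Plaur window an AP-1 site (TGANTCA) and the Klk1 window the ESRRB site (AAGGTCA, read on the other strand). The Dusp1 window holds a cyclic AMP response element (TGACGTCA), the E-box CACGTG and the KLF-type motif in both of its cytosine-rich runs, and the windows of Spred3 and Gpx4 hold none of the letters searched. Over all 21263 start windows, ETS letters stood in 11.6%, AP-1 letters in 6.99%, the cyclic AMP response element in 2.23%, the ESRRB site in 4.08%, the E-box in 7.84%, the TEAD letters CATTCC in 13.6% and the KLF-type motif in 19.4%. The 649 gained windows held AP-1 letters in 11.4% and ETS letters in 7.40%, against 3.76% and 23.3% of the 8361 constant windows. In the 9613 windows that no library called, AP-1 letters stood in 9.81% and ETS letters in 2.48%, so the gained windows were nearer to these uncalled windows than to constant ones in both motifs. Among the 119 lost windows, AP-1 letters stood in 5.04%, ETS letters in 4.20% and the ESRRB site in 4.20%. Median GC content was the same, 63.0%, in gained and constant windows, and was 54.7% in lost windows, 48.3% in uncalled windows and 56.3% over all windows. The part of base composition in the shares of lost and uncalled windows was not tested. KLF-type letters were in 28.2% of gained, 23.7% of constant, 11.8% of lost and 13.6% of uncalled windows. For TEAD letters the shares were 11.7% of gained, 10.7% of constant, 16.0% of lost and 16.5% of uncalled windows. The ESRRB site was in 2.00% of gained, 2.81% of constant and 5.59% of uncalled windows. In these motifs the gained windows were nearer to constant than to uncalled ones. The cyclic AMP response element was in 1.39% of gained, 4.17% of constant and 0.770% of uncalled windows. For the E-box the shares were 6.78%, 12.2% and 4.32%, so in these motifs gained windows were nearer to uncalled ones. A match says only that the letters are there, not that a factor binds them.

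The MED24 lists were of unequal length. The 0 h libraries held 41689 peaks in clone a and 38398 in clone b, and the 2 h libraries 42445 and 48931. Both 2 h lists were longer than both 0 h lists, and the difference of the means was 5644.5 peaks (exact two-sided permutation test, p = 0.333, the smallest p that 2 against 2 libraries allow). Clone a accounted for 756 more peaks and clone b for 10533. Peaks covered 22.8 and 20.8 Mb at 0 h and 22.4 and 26.6 Mb at 2 h (clones a and b), so the groups overlapped (exact permutation p = 0.667). Median peak width was 410 bp in both 0 h libraries and 406 and 411 bp at 2 h (exact permutation p = 1). Scores ran from 20 in every list to between 5049 and 5842, with medians of 119 and 120 at 0 h and 131 and 130 at 2 h. Scores are those the authors deposited, and here they serve to rank peaks within 1 list. Read numbers are not part of the lists, and the depth of each library is unknown.

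**Figure D1:**
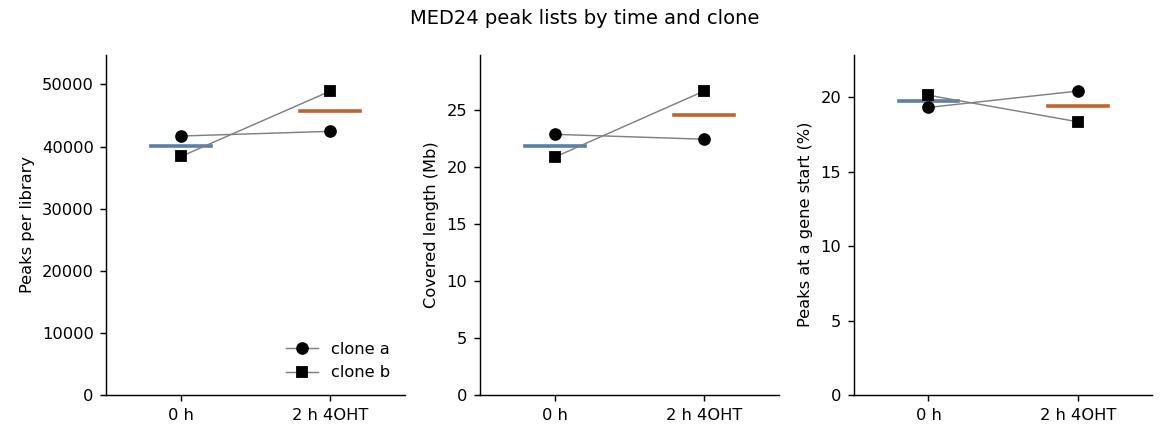
MED24 peaks per library, covered length in Mb and the share of peaks at a gene start in percent, at 0 h and after 2 h of 4OHT. Points are the libraries of clones a (circles) and b (squares), joined within a clone, and coloured bars are group means; peak numbers were higher at 2 h in both clones, while covered length and the share at gene starts moved in opposite directions in the clones.

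Gene starts held more MED24 peaks at 2 h in both clones, while their share of the list was larger in clone a and smaller in clone b. Peaks over a start window numbered 8053 and 7732 at 0 h and 8666 and 8980 at 2 h (clones a and b). The 2 h values lay above both 0 h values, by 930.5 peaks on average (exact permutation p = 0.333, the smallest possible). As a share of each list this was 19.3% and 20.1% at 0 h and 20.4% and 18.4% at 2 h, which overlapped (exact permutation p = 1). Its mean difference of −0.342 percentage points turned to 0.0678 points when clone b's 0 h library was left out and to 0.690 when clone b's 2 h library was. With the 20000 highest-scoring peaks of each library it was 0.828 points. The table of start windows covers 17492 of 21887 protein-coding genes and none on chromosome 18, so each share at gene starts is a lower bound. Peaks inside the span of a gene made up 58.1% of both 0 h lists and 60.0% and 58.7% of the 2 h lists. Peaks more than 100 kb from any gene span made up 8.87% and 8.71% at 0 h and 7.67% and 8.19% at 2 h.

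Of the 66123 regions, 10574 (16.0%) were gained, 5839 (8.83%) were lost and 21529 (32.6%) were constant, and the other 28181 had mixed calls. Gained regions outnumbered lost ones, but the counts moved with the length of the lists and differed with the library left out. Leaving out a library or pairing within clones also loosens the rule for gained and lost, so those counts rise by construction. With equal lists of 20000 peaks there were 5631 gained and 4958 lost regions. Leaving out the 0 h library of clone b gave 12010 gained and 11251 lost, leaving out the 0 h library of clone a gave 9295 lost, and leaving out the 2 h library of clone a gave 18133 gained. Paired within clones and averaged, a mean of 18724 regions were called only at 2 h and 12976 only at 0 h. Gained regions were found on every autosome at similar shares, from 15.0% of regions on chromosome 6 to 17.4% on chromosome 18. On the X chromosome 15.4% were gained and 12.5% lost, against 7.65% to 10.3% lost on the autosomes.

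Gained and lost regions were mid-ranked and mostly away from gene starts. A peak's percentile is its rank by score within its own list, 100 being the top. Median percentiles were 46.0 and 55.5 for gained regions (2 h, clones a and b) and 44.7 and 42.8 for lost regions (0 h). Constant regions had medians of 69.3 and 66.4 at 0 h and 64.6 and 68.9 at 2 h. A constant region had to be called in all 4 lists, so a higher rank is partly built into the class. Regions with mixed calls had a median percentile of 22.3 over the libraries that called them. Median region width was 423 bp for gained, 393 bp for lost and 835 bp for constant regions. This width spans all merged peaks, from 4 libraries in constant regions but from 2 in gained or lost ones. Within single libraries, constant regions covered medians of 622 and 585 bp at 0 h and 584 and 650 bp at 2 h. The part of merging in the wider constant regions was not tested. Start windows were touched by 506 gained regions (4.79%), 90 lost regions (1.54%) and 7126 constant regions (33.1%). These shares were 7.76% of gained and 6.13% of lost regions with 20000 peaks per library. They were 10.6% and 5.94% when a gene end within 1 kb was counted in place of a start window. The share for gained regions was 7.56% without the 0 h library of clone a. For lost regions it was 2.41% without the 2 h library of clone a, 2.67% without that of clone b, and 2.74% paired within clones. Regions more than 100 kb from a gene span made up 10.2% of gained, 14.7% of lost and 6.91% of constant regions. The nearest constant region lay at a median of 21.2 kb from a gained and 19.6 kb from a lost region, and 33.9% and 36.9% lay within 10 kb of one.

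High-ranked regions were lost less often than they were gained. Among regions called in both 0 h libraries, the share absent from both 2 h libraries was 33.2% in the lowest 10 percentiles, 24.9% between percentiles 40 and 50 and 3.88% in the top 10 (147 of 3790). Among regions called in both 2 h libraries, the share absent from both 0 h libraries was 47.0% in the lowest 10 percentiles, 33.7% between 40 and 50 and 19.8% in the top 10 (847 of 4273). The top values were 11.0% and 26.6% with 20000 peaks per library. The first was 7.07% with clone b's 2 h library left out and 5.82% paired within clones. Regions at a gene start were absent less often than others of the same rank. Peaks at a start were also wider, with library medians of 683.5 to 754 bp against 362 to 370 bp elsewhere. The part of width in these shares was not tested. Between percentiles 40 and 50, 1.23% of 0 h regions at a gene start were absent at 2 h, against 31.9% elsewhere. At 2 h, the corresponding shares absent at 0 h were 7.05% and 40.8%. In the top 10 percentiles they were 0.489% and 4.53% for 0 h regions and 2.47% and 23.4% for 2 h regions. Regions elsewhere include starts of genes that the window table does not hold.

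**Figure D2:**
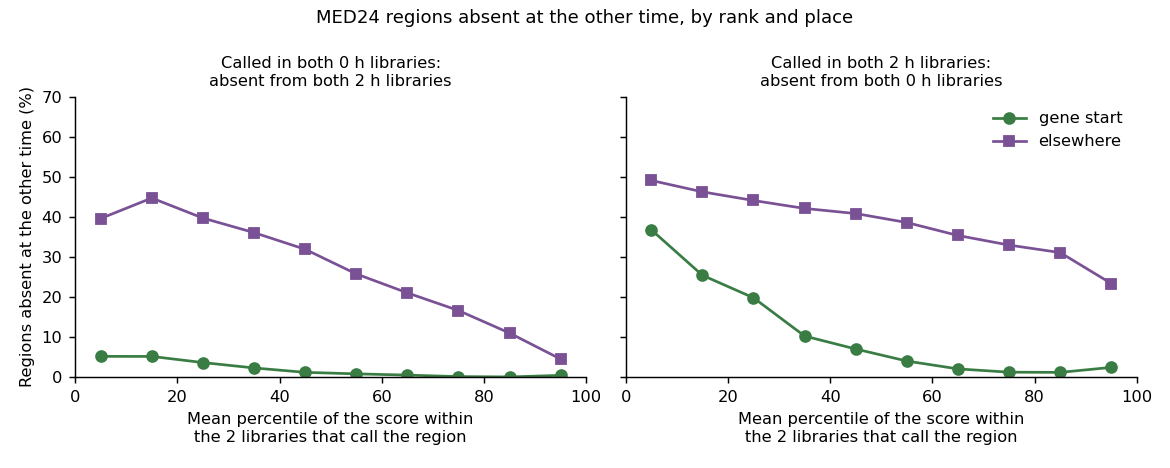
Share of MED24 regions absent from both libraries of the other time (percent), by the mean score percentile in the 2 libraries that call them, for regions called in both 0 h libraries (left) and in both 2 h libraries (right). Circles are regions at a RefSeq gene start and squares all others; in the top 10 percentiles 4.53% of 0 h regions and 23.4% of 2 h regions away from gene starts were absent at the other time.

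High-ranked gained regions had no peak in either 0 h library and stood near the top of both 2 h lists. A region 24.2 kb from Tbk1, a kinase of innate immune signalling, was at percentiles 99.99 and 99.93 (chr10:121520223-121522287, scores 4839 and 4527). Others lay 7.47 kb from Brpf3 (chr17:28792509-28793654, scores 4427 and 4633) and 1.84 kb from Ankrd12 (chr17:65959168-65963866, scores 4353 and 4392), and a further one was on chromosome 18 with no gene span within 100 kb. The gene table gives spans without exons, so whether a region inside a gene is exonic or intronic is not given here.

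The highest-ranked lost regions stood lower in their lists than the highest gained ones did. A region inside the span of Ccdc57 was at percentiles 99.0 and 98.8 at 0 h (chr11:120850302-120852887, scores 2163 and 1984). One inside Flt3, a receptor tyrosine kinase of blood progenitors, was at 98.5 and 98.8 (chr5:147379310-147380079, scores 1796 and 1935). The others were inside Ppp2r2c (scores 1859 and 1783) and Arhgef10l (scores 1914 and 1558) and 1.97 kb from Mettl5 (scores 1453 and 1632). None had a peak in a 2 h library.

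By gene, the start was constant for 7289 of the 17492 genes with a window (41.7%), gained for 540 (3.09%) and lost for 93 (0.532%). No library had a peak at the start of 7528 genes, and 2042 had mixed calls. Dnah1, whose window is printed above, was absent from both 0 h lists and had scores of 3496 and 4088 at 2 h, at percentiles 99.8 and 99.9. The Gsn start region scored 1917 and 2924 at 2 h and covered 2722 and 3106 bp. Sun1, a nuclear envelope protein that links the nucleus to the cytoskeleton, scored 1663 and 2189 at its start (chr5:139215024-139215741). The start of Emp3, a membrane protein, scored 1592 and 2252 (chr7:45920227-45921506). Dclk1, a doublecortin-like kinase, scored 1744 and 1433 (chr3:55461357-55462160). Each of these 5 starts was within the top 3 percentiles of both 2 h lists and was not called at 0 h.

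Lost starts were fewer and ranked lower. The upstream Gpx4 start had scores of 797 and 594 at 0 h (percentiles 94.2 and 91.3), and other windows of Gpx4 were constant. Klk1 had scores of 644 and 717. Serpina3i, a serpin, had 549 and 589 (chr12:104262675-104263331). A region shared by the starts of Lrrc74b and P2rx6, the latter an ATP-gated channel, had 336 and 282 (chr16:17561067-17561813). Mpeg1, a pore-forming protein of macrophages, had 293 and 303 (chr19:12460491-12460936). None of these regions was called at 2 h.

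Constant regions differed in rank in both directions. Within clones, the mean 2 h minus 0 h difference in percentile was −3.73 points for clone a and 3.25 for clone b, so the average of −0.243 points was smaller than the gap between the clones. A region counts as higher or lower where its percentile differed by at least 10 points in the same direction in both clones. By that rule 3884 of 21529 (18%) were higher at 2 h and 4034 (18.7%) were lower, and 1718 differed by as much in opposite directions. Across these regions the 2 clones' differences had a correlation of 0.62, as a description, since regions of a library share its depth and list. Constant regions at a gene start were higher more often than lower, at 16.9% and 7.28% of 7126. Elsewhere, 18.6% were higher and 24.4% lower, of 14403. Median differences were 2.45 points at gene starts and −2.32 points elsewhere.

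**Figure D3:**
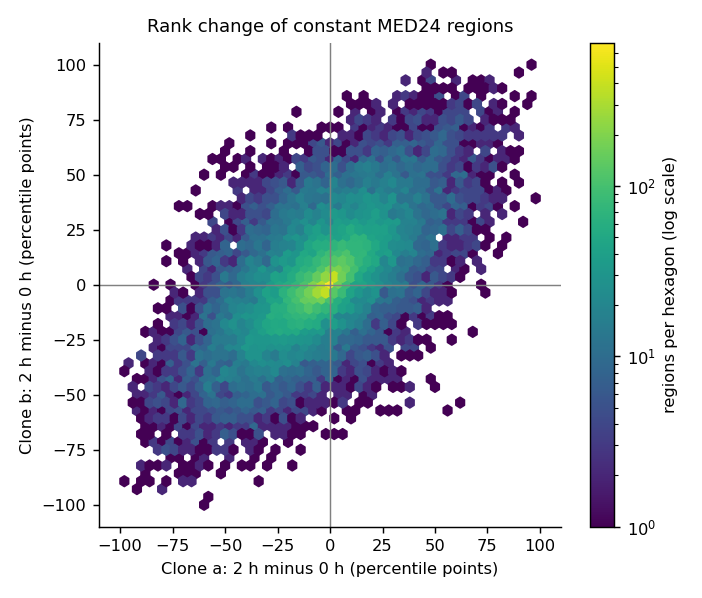
Difference in score percentile, 2 h minus 0 h, of the 21529 MED24 regions called in all 4 libraries, for clone a (x axis) and clone b (y axis), in percentile points. Colour gives regions per hexagon on a log scale; the cloud runs along the diagonal, with 3884 regions at least 10 points higher and 4034 at least 10 points lower in both clones.

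Single constant regions went from the bottom to the top of the lists or the reverse. A region 28.1 kb from Noct, a circadian NADP(H) phosphatase, stood at percentiles 1.64 and 1.04 at 0 h and at 98.1 and 99.3 at 2 h (chr3:51195133-51196309). Next to Slc46a3 (chr5:147895087-147896164) the percentiles were 7.88 and 1.47 at 0 h and 96.4 and 96.7 at 2 h. One inside Txndc2 (chr17:65647337-65649218) was at 15.5 and 9.63 and then at 98.4 and 98.8. The other regions of the 5 with the largest positive difference were 37.7 kb from Syt6, a synaptotagmin (0.959 and 7.84, then 96.8 and 94.9), and on chromosome 9 with no gene within 100 kb (7.88 and 12.2, then 94.9 and 96.4). The reverse held for a region 2.56 kb from Hoxc13 (chr15:102931378-102932266), at 98.9 and 98.8 at 0 h and 1.91 and 9.47 at 2 h. A region 1.43 kb from Misp3 went from 93.6 and 92.0 to 2.45 and 0.459 (chr8:84008276-84008795). Inside A4galt, a glycolipid galactosyltransferase, percentiles were 89.2 and 93.2 at 0 h and 3.94 and 3.53 at 2 h (chr15:83244270-83244812). Regions inside Gm30599 (97.1 and 96.2, then 5.53 and 7.21) and 43.1 kb from Nabp1 (98.1 and 96.7, then 8.09 and 11.0) complete the 5 lowest.

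Width showed little shift over all constant regions but large changes at a few. The median log2 ratio of covered bases, 2 h over 0 h, was −0.09 in clone a and 0.10 in clone b. At least 2-fold more bases in both clones were covered at 2 h in 566 regions (2.63%), and at least 2-fold fewer in 521 (2.42%). Covered bases are summed over a region's peaks in a library. The region over the Plaur start, printed above, covered 507 and 404 bp at 0 h and 5177 and 5152 bp at 2 h. It held 1 peak in each 0 h library and 2 and 4 peaks at 2 h. Its percentile was 76.3 and 70.1 and then 97.2 and 98.1. At 0 h its peak did not reach the start window. The region at the start of S100a3, a calcium-binding protein, covered 431 and 447 bp at 0 h and 4120 and 3819 bp at 2 h (chr3:90584288-90588438), and its scores were 176 and 95 and then 4829 and 5171. Inside Ehd1, which acts in endocytic recycling, 281 and 244 bp became 1765 and 1749 bp (chr19:6296519-6298383). The region inside Txndc2 went from 255 and 241 bp to 1581 and 1856 bp, and one inside Slc26a2, a sulfate transporter, from 663 and 695 bp to 3979 and 4720 bp. Among regions that narrowed, one inside Usp48, a deubiquitinase, covered 1972 and 2338 bp at 0 h and 202 and 200 bp at 2 h (chr4:137596786-137599147). One inside Trim67, a ubiquitin ligase, covered 2230 and 2591 bp and then 312 and 293 bp (chr8:124799229-124801935). Regions 58.1 kb from Maip1 (1755 and 1831 bp, then 220 and 265 bp) and 14.3 kb from Tha1 (2703 and 2971 bp, then 413 and 379 bp) followed the same course. The region 43.1 kb from Nabp1, a single-stranded DNA binding protein, covered 1095 and 1076 bp and then 204 and 200 bp (chr1:51420650-51421837).

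Each region was given to its closest protein-coding gene, up to 100 kb away, which gave 60004 regions at 16177 genes. Of these regions 15.8% were gained, 8.30% lost and 33.4% constant. Of the genes, 4721 (29.2%) had more gained than lost regions and 2186 (13.5%) more lost than gained. Among constant regions with a gene, 18.1% were higher and 17.9% lower at 2 h in both clones, with a median difference of −0.12 points. The lists below are read against these values, as counts and with no test, and several genes stand in more than one list. Values paired within clones or with a library left out rest on fewer libraries per call. That rule is looser and raises gained and lost counts, so the size of such values is not comparable with those as reported.

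The ERK feedback list held many gained regions. It joins negative feedback inhibitors of ERK signalling with other genes such as the ETS factors Etv1, Etv4 and Etv5. Of 194 regions at 17 genes, 50 were gained and 6 lost, and 13 genes had more gained than lost regions against 2 with more lost. Phlda1, a growth-factor-responsive gene, had 3 regions called in each 0 h library and 13 and 17 at 2 h. Dusp5, a nuclear ERK phosphatase, had 4 and 4 at 0 h and 14 and 12 at 2 h. Spry4, a Sprouty inhibitor of receptor tyrosine kinase signalling, had 3 and 3 and then 9 and 16. In these 3 genes no region was lost, and both 2 h libraries lay above both 0 h libraries. They were chosen by gained minus lost regions, so this separation follows largely from the choice. Errfi1, an inhibitor of the EGF receptor, had 3 and 2 regions at 0 h and 8 and 7 at 2 h. Dusp6, a cytoplasmic ERK phosphatase, had 8 and 6 and then 6 and 7, with 1 region lost and none gained. Starts of 12 of the 13 list genes with a window were constant, and that of Spred3 was gained: its region, which also overlaps the span of the neighbouring gene Ggn and was assigned to it, covered 358 and 365 bp at 0 h and 1624 and 1503 bp at 2 h. Constant regions of the list were higher in 15 and lower in 9 of 63. The list's gained minus lost share exceeded that of all assigned regions by 15.2 percentage points, and by 7.38 points when regions were assigned within 20 kb only. Paired within clones the excess was 23.5 points, under a looser rule that gave means of 81.5 gained and 21.5 lost of 176 regions.

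ERK immediate early genes are induced without new protein synthesis, and many of them encode transcription factors. They had 34 gained and 11 lost of 157 regions. Their excess over all assigned regions was 7.13 points, 1.79 points with assignment within 20 kb, 17.9 points with 20000 peaks per library and 11.3 points paired within clones. Klf6 had 13 and 9 regions at 0 h and 17 and 21 at 2 h, with 8 gained and 1 lost. Fos went the other way, with 10 and 9 regions at 0 h, 6 and 8 at 2 h, 4 lost and 1 gained. Myc had 10 and 8 and then 11 and 13, and Ier5 had 4 and 4 and then 8 and 10. Egr1 had 1 region in 3 libraries and 3 in the 2 h library of clone b. Of 15 starts, 13 were constant, and that of Jund was lost from its window although 3 constant regions lay at that gene.

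Wnt targets and TCF/LEF factors held 27 gained and 4 lost of 103 regions. Tcf7l2 had 7 and 8 regions at 0 h and 20 and 21 at 2 h, 10 of them gained and none lost. Lef1 had 2 and 4 and then 8 and 10, and Tcf7 had 1 and 1 and then 5 and 6. Lgr5, a receptor for R-spondins, had 3 and 2 and then 5 and 5. In all 4 genes the 2 h libraries lay above the 0 h libraries, which follows largely from their choice by gained minus lost regions. Axin2, a classical target of the pathway, had 2 and 2 regions at 0 h and 3 and 2 at 2 h, none gained or lost. The list's excess over all assigned regions was 14.8 points, and 24.96 points paired within clones.

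Naive pluripotency factors lost more regions than they gained. Of 208 regions at 15 genes 22 were gained and 35 lost, and 4 genes had more gained and 9 more lost regions. Esrrb, an orphan nuclear receptor, had 19 regions in each 0 h library and 15 and 14 at 2 h, with 9 lost and 4 gained. Prdm14 had 17 and 13 at 0 h and 8 and 10 at 2 h, and Tfcp2l1 had 9 and 11 and then 5 and 7. At these 3 genes every 0 h library lay above every 2 h library, which follows largely from their choice by gained minus lost regions. Zfp42, also known as Rex1, had 14 and 12 regions at 0 h and 20 and 23 at 2 h, with 5 gained and none lost. Constant regions of the list were higher in 4 and lower in 24 of 65, with a median of −8.92 points. The list's gained minus lost share was below that of all assigned regions by 13.8 points as reported (a difference of −13.8), and paired within clones the difference was −22.1 points. Starts were called in all 4 libraries at 6 of 11 genes with a window, and none was gained or lost.

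Core pluripotency factors had 23 gained (12.0%) and 19 lost (9.90%) of 192 regions, against 15.8% and 8.30% of all assigned regions. Their gained minus lost share differed by −5.44 points, and by −11.0 to −1.77 points in the alternatives. Their constant regions were higher in 8 and lower in 22 of 74, with a median of −5.62 points. Pou5f1, which encodes OCT4, had 3 and 4 regions at 0 h and 6 and 6 at 2 h. Sox2 had 14 and 13 and then 11 and 15, so its groups overlapped. Tdgf1, a NODAL co-receptor, had 4 regions in each 0 h library and 1 in each 2 h library. Zfp281 had 15 and 12 and then 14 and 18, and Sall4 had 8 and 6 and then 8 and 8. Of 10 starts with a window 8 were constant, those of Pou5f1 and Sox2 among them.

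LIF and STAT3 pathway genes had 12 gained (14.1%) and 13 lost (15.3%) of 85 regions, against 15.8% and 8.30% of all assigned regions. Their gained minus lost share differed by −8.70 points, and by −20.7 to −5.86 points in the alternatives. Pim1, a kinase, had 15 and 14 regions at 0 h and 9 and 11 at 2 h, with 4 lost and none gained. Socs3, the feedback inhibitor of the pathway, had 12 and 11 and then 8 and 8. Spp1, which encodes osteopontin, had 6 and 6 and then 2 and 2. Lifr, the LIF receptor, had 7 and 5 and then 7 and 7. Jak1 gained a peak at its start.

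Formative and mesendoderm lists both lay on the side of loss relative to all assigned regions. Among formative epiblast genes 18 of 117 regions were gained and 14 lost, a difference from all assigned regions of −4.10 points, which was 2.06 points when regions were assigned within 20 kb only. Otx2 had 14 and 15 regions at 0 h and 8 and 9 at 2 h, and Foxd3 had 16 and 15 and then 8 and 9. Grhl2 had 9 and 5 and then 14 and 15. The starts of Dnmt3b, a DNA methyltransferase, and Zic5 were gained. Mesendoderm genes had 3 gained and 8 lost of 43 regions. Lefty1, an inhibitor of NODAL, had 7 and 7 regions at 0 h and 3 and 2 at 2 h. Eomes had 9 and 10 and then 7 and 8, Gsc had 3 and 2 and then 0 and 1, and Evx1 had 1 and 1 and then 4 and 3. The difference of the mesendoderm list from all assigned regions was −19.1 points, −38.9 points without the 0 h library of clone a and −30.4 points without that of clone b.

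Primitive endoderm genes had 19 gained and 6 lost of 84 regions, an excess over all assigned regions of 7.96 points. Dropping clone a's 0 h library left an excess of 2.22 points, and assignment within 20 kb gave 13.8 points. Sparc, a matrix protein, had 5 and 4 regions at 0 h and 10 and 10 at 2 h, and the endocytic receptor Cubn had 3 and 4 and then 7 and 8. The collagen genes Col4a2 and Col4a1 had 3 and 2 and then 7 and 9, and 4 and 5 and then 6 and 5. Gata6 had 2 and 1 regions at 0 h and none at 2 h. Trophectoderm genes had 25 gained and 8 lost of 107 regions, and 10 of 11 genes had more gained than lost. Gata2, Elf5, Hand1 and Krt7 did so by 1 region each. Over all 16177 genes with a region the share was 29.2%, but they held 60004 regions, fewer per gene. The excess of the trophectoderm list was 8.37 points, 3.42 points with clone b's 2 h library left out, 4.47 points with clone a's 2 h library left out and 4.12 points paired within clones. Krt18 had 4 and 2 and then 7 and 7, Krt8 had 1 and 2 and then 5 and 5, and Tfap2a had 10 and 10 and then 11 and 12. Tfap2c, the exception, had 19 and 17 regions at 0 h and 11 and 12 at 2 h. Neural genes were at the background, with 10 gained (16.9%) and 5 lost (8.47%) of 59 regions, a difference of 0.955 points that was −13.1 points with 20000 peaks per library. It was −0.0541 points with clone b's 0 h library left out, 11.5 points with clone a's 2 h library left out and 8.41 points paired within clones. Each other library left out gave 4.59 points (0 h, clone a) or 4.44 points (2 h, clone b), and assignment within 20 kb gave 4.18. Among them were Sox1 at 10 and 8 and then 11 and 13, Dlx2 at 3 and 2 and then 5 and 7, Pax6 at 6 and 6 and then 5 and 7, and Nes at 2 and 2 and then 4 and 3.

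Circadian clock genes had 31 gained (23.7%) and 12 lost (9.16%) of 131 regions, against 15.8% and 8.30% of all assigned regions. Of the gained ones, 15 were at Arntl. That gene, which encodes the clock activator BMAL1, had 10 regions in each 0 h library and 26 and 29 at 2 h. Its partner gene Npas2 had 6 and 5 and then 8 and 10, with a gained start. Nr1d2 had 3 and 3 and then 1 and 1. Per1 had 4 and 5 and then 5 and 6.

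Hippo pathway genes were near the background, with 22 gained (16.8%) and 13 lost (9.92%) of 131 regions, against 15.8% and 8.30% of all assigned regions. Their gained minus lost share differed by −0.649 points, and by −5.68 to 5.35 points in the alternatives. Tead1, a TEAD factor, had 13 and 12 regions at 0 h and 15 and 14 at 2 h, Tead4 had 10 and 8 and then 12 and 14, and Ccn1 had 6 and 5 and then 6 and 8. Amotl2, an inhibitor of YAP, had 13 and 11 at 0 h and 5 and 7 at 2 h. Actin and adhesion genes had 23 gained (19.0%) and 12 lost (9.92%) of 121 regions. Their difference from all assigned regions was 1.57 points, and −6.88 to 11.3 points in the alternatives. Of the gained ones, 8 were at Ahnak, with 4 and 6 regions at 0 h and 13 and 14 at 2 h. Itgav had 6 and 5 and then 8 and 6, Itga5 had 3 and 2 and then 6 and 5, and Vcl, which encodes vinculin, had 3 and 4 and then 6 and 5.

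Genes of Mediator itself had 21 gained (19.4%) and 7 lost (6.48%) of 108 regions, against 15.8% and 8.30% of all assigned regions. Their excess in gained minus lost share was 5.44 points, and 0.313 points with assignment within 20 kb. Of the gained ones, 10 were at Med13l, a paralogue of the kinase module subunit MED13. Med13l had 10 and 7 regions at 0 h and 15 and 18 at 2 h. The gene Med24 had 3 and 2 regions at 0 h and 3 and 3 at 2 h, none gained or lost. Med12l had 6 and 6 and then 4 and 4, Med27 had 3 and 4 and then 4 and 5 with a gained start, and Cdk19 had 3 and 3 and then 4 and 6. Of 28 starts with a window, 24 were constant.

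Lists read for comparison were close to the background in their gained share, at 16.7% for both, but below it in their lost share. Estrogen receptor targets, which bear on 4OHT as a ligand of estrogen receptors, had 8 gained and 1 lost of 48 regions. Their gained minus lost share exceeded that of all assigned regions by 7.06 points, by 0.659 points without the 0 h library of clone a and by 1.52 points when clone b's 2 h library was dropped, by 1.04 points paired within clones, and it was 2.55 points under it with 20000 peaks per library (a difference of −2.55). Greb1, a classical target, had 2 and 1 regions at 0 h and 1 and 1 at 2 h, Myb had 4 and 4 and then 5 and 7, Rara had 6 and 7 and then 6 and 8, and Cxcl12 had 2 and 1 and then 1 and 3. Housekeeping genes had 12 gained and 0 lost of 72 regions, 8 of the gained ones at Ywhaz, a 14-3-3 protein, with 8 and 8 and then 16 and 19 regions. The excess of the housekeeping list over all assigned regions was 9.15 points, against 7.13 points for the ERK immediate early list. With 20000 peaks per library it was 19.4 points, against 18.2 points for the ERK feedback list, and with clone a's 0 h library left out it was 14.6 points. Paired within clones the housekeeping excess was 17.2 points. The starts of all 11 housekeeping genes with a called window were constant. Actb had 7 and 4 and then 8 and 6, and Pgk1 had 1 and 1 and then 2 and 2.

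**Figure D4:**
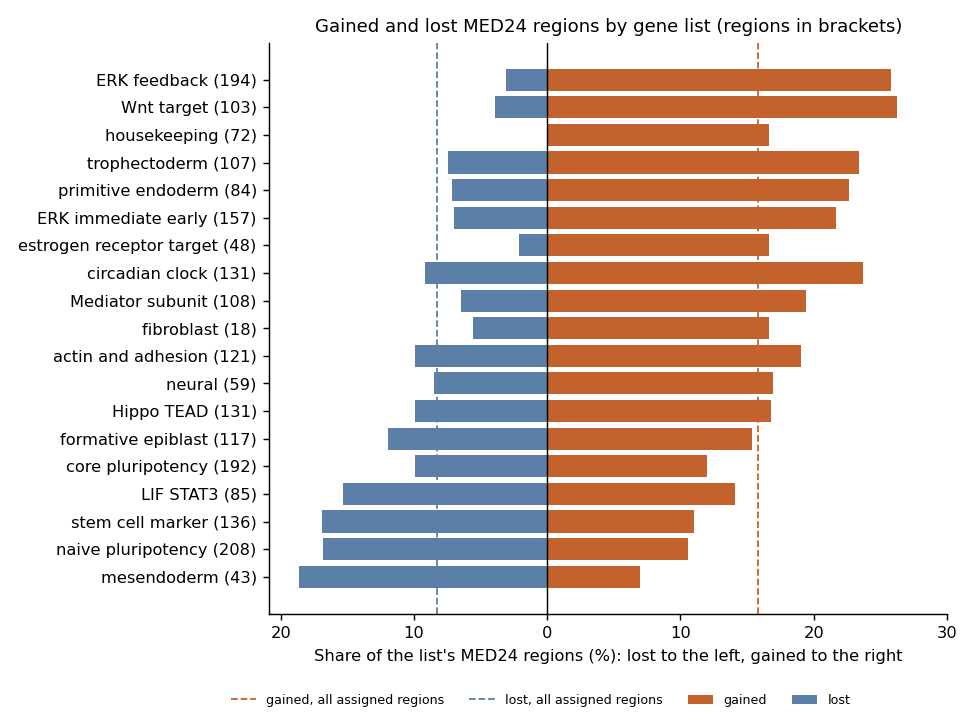
Share of each gene list's MED24 regions that were gained (bars to the right) and lost (bars to the left), in percent, with the number of assigned regions in brackets. Dashed lines give the shares over all assigned regions, 15.8% gained and 8.30% lost. Lists beyond both lines towards gain were ERK feedback, Wnt target, ERK immediate early, primitive endoderm, trophectoderm, Mediator subunit, fibroblast, estrogen receptor target and housekeeping. The naive and core pluripotency, stem cell marker, mesendoderm, LIF STAT3 and formative epiblast lists lay beyond both towards loss.

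The labelled cell type was checked through its markers. All 10 embryonic stem cell markers had MED24 regions in every library, 93 and 91 regions in all at 0 h and 78 and 89 at 2 h. As a list they had 15 gained (11.0%) and 23 lost (16.9%) of 136 regions, against 15.8% and 8.30% of all assigned regions. Klf4 had 8 and 7 regions at 0 h and 4 and 5 at 2 h, and Nanog had 9 and 9 and then 5 and 6. Of 12 fibroblast markers, 5 (Dcn, Fap, Lum, Postn and Prrx1) had no region in any library, and the list held 8 and 8 regions at 0 h and 12 and 13 at 2 h. Thy1 had 1 and 2 and then 1 and 3, Twist2 had 1 and 2 and then 2 and 2, Col1a2 had 1 and 1 and then 2 and 2, and Twist1 had none at 0 h and 2 and 1 at 2 h. Primitive endoderm genes held 41 and 46 regions at 0 h and 51 and 63 at 2 h, with Sox7 and Amn at 0. For trophectoderm genes the sums were 58 and 53 and then 65 and 76. Regions show where MED24 was found, not which genes were expressed, and the part of other cells in the results was not tested.

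Outside the lists, genes were ranked by the share of their regions gained or lost, among 1802 genes with at least 8 regions. Pofut2, an O-fucosyltransferase, had 7 of 9 regions gained, with 1 region in each 0 h library and 8 and 9 at 2 h. Tbk1 had 6 of 8 gained, with 2 and 1 and then 8 and 8. Runx2, a transcription factor of bone formation, had 7 of 11 gained, with 1 and 2 and then 7 and 10. Ap1s3 had 6 of 8 gained and the transporter gene Abcg2 5 of 8. On the side of loss, Ktn1, which encodes kinectin, had 6 of 10 regions lost, with 9 and 10 at 0 h and 2 and 3 at 2 h. Nubpl had 9 of 18 lost, with 16 and 15 and then 5 and 6. H4bc24, a histone gene, had 6 of 12 lost, and Fxyd6 and Limch1 had 5 of 10 each. The rule ranked genes by these counts, so they describe the extremes and were not tested.

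Ranks of constant regions were also averaged per gene, over 496 genes with at least 5 of them. In 138 genes the mean percentile was higher at 2 h in both clones and in 231 it was lower. Pde9a, a cyclic GMP phosphodiesterase, had mean percentiles of 30.9 and 27.7 at 0 h and 75.8 and 81.3 at 2 h over 5 regions. Nrp2, a semaphorin and VEGF receptor, had 67.2 and 67.8 and then 93.6 and 95.7 over 6 regions, with 9 further regions gained and none lost. Smndc1, a splicing factor, had 43.3 and 49.7 and then 85.7 and 89.2, with 8 regions gained and 2 lost. Sorl1, a sorting receptor, had 50.5 and 38.9 and then 85.7 and 80.9. The values for Ercc4, a DNA repair nuclease, were 45.7 and 54.8 and then 77.9 and 85.0, and for Fryl 51.6 and 53.5 and then 73.8 and 73.1.

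The lower ranks at 2 h were led by Kit, the stem cell factor receptor, with mean percentiles of 85.9 and 87.8 at 0 h and 46.7 and 56.5 at 2 h over 5 regions. Hspb8, a small heat shock protein, had 88.6 and 90.04 and then 55.3 and 61.2. Ubald2 had 71.6 and 64.0 and then 35.5 and 34.1, and the heparan sulfatase gene Sulf2 had 70.3 and 68.8 and then 42.3 and 36.6. Kazn had 78.9 and 72.9 and then 42.8 and 46.6. In each of these 5 genes both 0 h values lay above both 2 h values, which follows largely from their choice by the largest falls.

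Gained and lost regions also stood in clusters, runs of regions less than 10 kb apart. There were 34687 clusters, 21598 of them single regions, and 835 held both gained and lost regions. Several clusters held many gained regions. At Krt18 and Krt8, keratins of simple epithelia, 7 of 14 regions were gained and 0 lost, and peaks covered 1.93 and 1.53 kb at 0 h and 6.09 and 5.92 kb at 2 h (chr15:102002937-102052447). At Arntl 7 of 15 regions were gained, and cover was 1.95 and 1.96 kb and then 8.69 and 9.92 kb (chr7:113164632-113208349). The Spry4 cluster on chromosome 18, which reaches Arhgap26, had 7 of 18 gained, with 2.14 and 1.69 kb and then 7.98 and 11.0 kb. Klf6 had 7 of 21 gained and 1 lost, with 8.80 and 6.83 kb and then 11.6 and 15.1 kb (chr13:5823248-5899973).

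The cluster with the most lost regions was that of Esrrb (chr12:86455013-86522748). Of its 21 regions 9 were lost and 0 gained, and cover was 16.2 and 16.3 kb at 0 h and 4.64 and 5.76 kb at 2 h. At Arid5b 7 of 17 regions were lost and 2 gained, with 7.07 and 7.06 kb and then 2.33 and 4.06 kb (chr10:68212305-68264417). A cluster at Foxn3, a forkhead factor, had 6 of 7 regions lost, with 4.15 and 4.82 kb and then 0.208 and 0 kb (chr12:99339839-99348059). All 5 regions of a cluster on chromosome 16 with no gene named for it were lost (chr16:9349685-9354110).

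**Figure D5:**
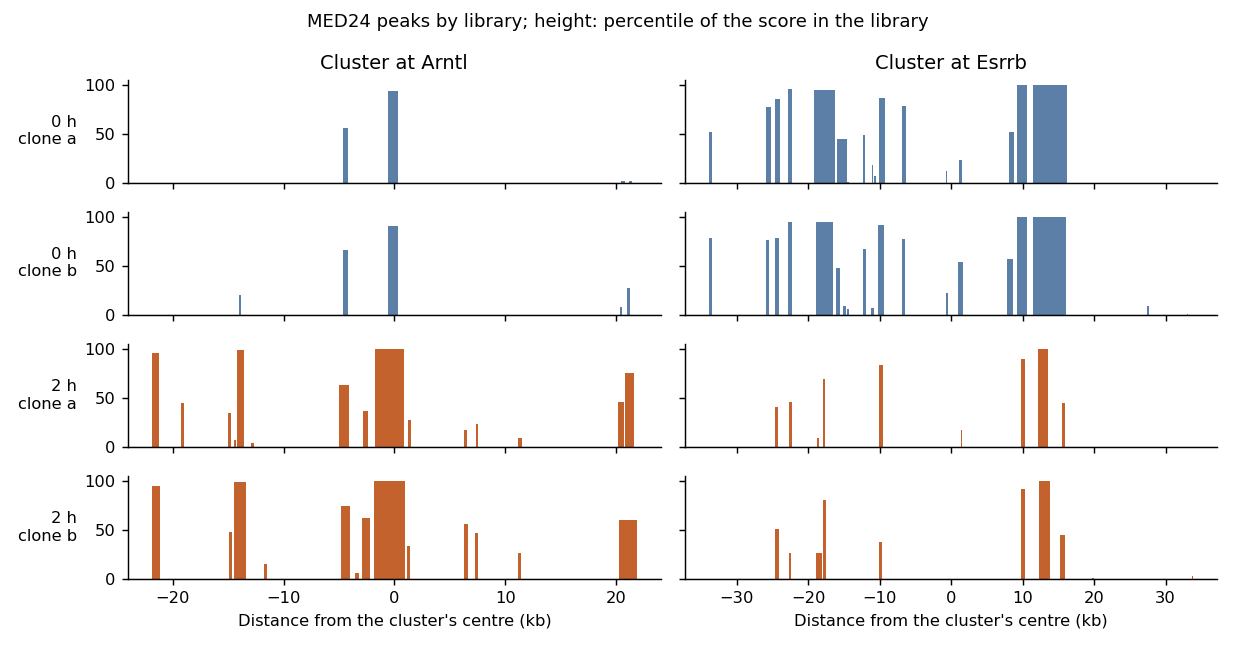
MED24 peaks in each library at the Arntl cluster (left) and the Esrrb cluster (right), against distance from the cluster's centre in kb. Bar width is the peak's extent and bar height the percentile of its score within its library; peaks covered 1.95 and 1.96 kb at 0 h and 8.69 and 9.92 kb at 2 h at Arntl, and 16.2 and 16.3 kb and then 4.64 and 5.76 kb at Esrrb.

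MicroRNA genes were read the same way. Of 1005 RefSeq hairpins, 440 had a MED24 region within 5 kb, and gained and lost regions differed by 2 or more at 11, with 9 towards gain and 2 towards loss. Over all regions gain also outnumbered loss, at 16.0% and 8.83%, and neighbouring hairpins can count the same regions. The split was not tested. The miRNAs named here were picked after these values were seen. Mir132 and Mir212, neighbouring hairpins on chromosome 11 (chr11:75173682-75173747 and chr11:75173388-75173478, plus strand), had 2 gained and 0 lost of 5 and 4 regions. Near Mir132 these were 2 and 3 regions at 0 h and 5 and 5 at 2 h, and the 4 regions of Mir212 are all among those of Mir132. Mir10a (chr11:96317165-96317274, plus strand) had none at 0 h and 2 in each 2 h library. The mature sequences are printed with the seed, bases 2 to 8, in capitals, because miR-132-3p and miR-212-3p share it.
mmu-miR-132-3p: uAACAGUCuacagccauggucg
mmu-miR-212-3p: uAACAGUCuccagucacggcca
mmu-miR-10a-5p: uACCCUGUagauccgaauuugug

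MED1 peaks of the same clones and times were laid over the MED24 regions. MED1 was found in 8.91% and 8.56% of gained MED24 regions at 0 h and in 83.6% and 86.8% at 2 h (clones a and b). The difference of 76.5 percentage points was larger than the spread between clones (exact permutation p = 0.333, the smallest possible). Lost MED24 regions held MED1 in 57.9% and 58.9% at 0 h and 7.07% and 9.35% at 2 h (exact permutation p = 0.333). Constant regions held MED1 in 89.8% to 90.9% in all 4 libraries (exact permutation p = 1). Whether the MED1 and MED24 libraries came from the same chromatin is not stated.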

How the data were processed

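MED24 was measured by ChIP-seq with anti-FLAG in 4 libraries, grouped by the sample titles. The submitters' processing notes list Bowtie2, MACS2, bedtools and the mm10 build. Their versions, and how the inputs entered, were not given in the sources used here. The authors deposited 1 peak list per library, with position, name and a score per peak. The deposited score was read as 10 times −log10 q: in the MED1 lists it equalled that value, rounded down, in 100% of peaks, but the MED24 lists do not say so. Peak names in the MED24 lists carry FLAG and a folder named for another cofactor, EP300; the labels were followed. Depth is unknown, and 2 clones per group limit the precision.

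Peaks were merged with Python 3.11.15, pandas 2.3.3, NumPy 2.4.6 and SciPy 1.17.1, and plotted with matplotlib 3.10.9, in scripts tested on simulated data. Regions were assigned to the nearest of 21887 RefSeq protein-coding gene spans (GRCm38.p6) within 100 kb. All 280 genes of the 19 lists were found there, 215 of them with a start window. A region's percentile in a library is that of its highest score. Values per library were tested by exact two-sided permutation, and regions had no test.

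Members and lists were chosen with earlier results of these data known. Named items follow a rule: up to 4 genes per list by gained minus lost regions (others in a list are named for their role, or as exceptions after their values were seen), the 6 genes each way by mean percentile over at least 5 constant regions, the 5 genes each way by share of at least 8 regions, and the 5 regions or clusters each way by rank, width, gene start or number gained or lost. Some items that the rule names are not reported here. The clone letter pairs the libraries, since the labels name the same clone at both times; deviations of same-clone libraries from their group means had a correlation of −0.01 over constant regions. Alternatives were a score of at least 50, 20000 peaks per library, an overlap of 100 bp, windows of 500 bp, assignment within 20 kb, each library left out and a replicate block.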

Additional observations from a re-analysis of the deposited data

Results flagged for a closer look

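The 2 clones moved in opposite directions in 6 measures, and the difference between the clones was not tested. Covered length differed, 2 h minus 0 h, by 5.79 Mb in clone b and −0.428 Mb in clone a. Median peak width differed by −4 bp for clone a and 1 bp for clone b. The share of peaks wider than 1 kb differed by −1.48 percentage points for clone a and 0.0672 for clone b. The share of peaks at a gene start differed by 1.10 percentage points for clone a and −1.78 for clone b. The mean percentile of constant regions differed by −3.73 points for clone a and 3.25 for clone b. Their median log2 covered bases differed by −0.0929 for clone a and 0.101 for clone b. List lengths moved with these values, by 756 and 10533 peaks. The part of list length in them was not tested.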

How the results depend on the processing

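A score of at least 50, an overlap of 100 bp and windows of 500 bp left the counts of gained, lost and constant regions within 1.5 times those reported. With 20000 peaks per library there were 5631 gained and 9438 constant regions, the rank difference of constant regions was −3.84 points, the median width difference was 22 bp and the share at a gene start differed by 0.828 percentage points; the last 2 have the opposite sign to those reported. Leaving out 1 library at a time, gained regions ran from 12010 to 18133, lost regions from 6899 to 11251, the width difference from −4 to 1 bp (1 without the 2 h library of clone a) and the share at a gene start from −1.37 to 0.690 points (0.0678 without the 0 h library of clone b). With a library left out or libraries paired within clones, the rule for gained and lost is looser, so their counts rise by construction. In the replicate block, paired within clones, gained regions numbered 18724 and lost regions 12976, and the other counts and differences over all libraries or regions stayed on the same side. The differences of the ERK feedback, Wnt target, naive pluripotency and mesendoderm lists from all assigned regions kept their sign in 8 alternatives. So did those of every list not named in the next sentence. Among them were the comparison lists of housekeeping genes (6.96 to 19.4 points) and fibroblast markers (4.22 to 26.1 points). Those of the Hippo, actin and adhesion, neural, estrogen receptor target and formative epiblast lists changed sign in at least 1, actin and adhesion also in the replicate block (1.57 to −1.95 points), and the cause was not tested. For the lists, assignment within 20 kb was planned, and their other alternatives, like those for gene starts by class and top-ranked regions, were chosen after seeing the data.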
